A study of Mus musculus with 19 samples.

Results

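The 35 genes described here encode the enzymes, carriers and regulators that bring pyruvate and glutamine carbon into the tricarboxylic acid (TCA) cycle and turn that cycle. They were chosen by name, as a set of TCA cycle, pyruvate entry and glutamine entry genes. All 35 were found by symbol among the 46983 genes counted and all 35 were among the 16763 genes tested, with 23 counts as the lowest value of any member in any library (Pdk4). RNA was measured by poly(A) RNA sequencing in 19 implanted tumours of 4T1, a mouse mammary carcinoma line, grown in syngeneic BALB/cAnN mice. The tumours fell into 4 groups. Control tumours came from the line named 4T1-Sc and received control IgG (n = 4, replicates 1, 3, 4 and 5) or anti-CTLA-4 (n = 5). LDHA-KD tumours came from the line named 4T1-KD, with a knockdown of lactate dehydrogenase A, and received IgG (n = 5) or anti-CTLA-4 (n = 5). In every group 1000000 cells were implanted, and from day 3 the antibody was given 3 times, 3 days apart. CTLA-4 is an inhibitory receptor of T cells, and the series asks how control and LDHA-deficient tumours respond to an antibody against it. Ages and sexes of the mice are not given in the labels.

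The design limits what a difference can be tied to. There was 1 knockdown line and 1 control line, and the labels do not say whether either is a clone, so the knockdown and any other difference between the lines cannot be told apart. The labels number the replicates without saying that each is a separate animal, so the p-values reflect the spread among libraries, which may be technical. Libraries held between 31.8 and 43.3 gene counts each, in units of 1000000. Ldha, the targeted gene, read 1283 to 2244 counts per 1000000 (CPM) in the 9 control libraries and 452 to 584 CPM in the 10 LDHA-KD libraries, with no overlap. On the second principal component, 4 libraries stood apart from the rest: replicates 3 and 5 of the LDHA-KD anti-CTLA-4 group, and the same numbers of the control anti-CTLA-4 group. Results that rest on them are given with and without them. Keratin and other epithelial markers of the tumour cells were present in all libraries, and none of the markers of immune, vascular, stromal or carried-along tissue was at 0 throughout.

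Pyruvate made by glycolysis is either reduced to lactate by lactate dehydrogenase or carried into mitochondria by the Mpc1 and Mpc2 proteins. There the pyruvate dehydrogenase complex turns it into acetyl-CoA, unless a pyruvate dehydrogenase kinase has phosphorylated and silenced the complex, a mark that the phosphatase Pdp1 removes. Citrate synthase joins acetyl-CoA to oxaloacetate, and isocitrate, alpha-ketoglutarate, succinyl-CoA, fumarate and malate follow in turn. Pyruvate carboxylase, malic enzymes, glutamate dehydrogenase and transaminases feed carbon into the cycle or draw it off, and glutamine is a major fuel of the cycle in many tumour cells.

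The pyruvate dehydrogenase kinase genes Pdk2 and Pdk3 encode enzymes of the same activity and differed from control in opposite directions in the knockdown tumours, so the stretches upstream of their RefSeq start sites are shown for comparison (GRCm38.p6, both read 5′ to 3′ on the minus strand). The Pdk2 stretch is chr11:95041372-95041621 and the Pdk3 stretch is chrX:93832182-93832400, whose last 20 bases lie in the first exon of the GENCODE M21 gene model. Capitals mark matches to ACGTG, the core of a hypoxia response element, or to CACGTG, an E-box, searched on both strands. Every CACGTG also holds ACGTG on each strand, so the Pdk2 match counts for both.
Pdk2: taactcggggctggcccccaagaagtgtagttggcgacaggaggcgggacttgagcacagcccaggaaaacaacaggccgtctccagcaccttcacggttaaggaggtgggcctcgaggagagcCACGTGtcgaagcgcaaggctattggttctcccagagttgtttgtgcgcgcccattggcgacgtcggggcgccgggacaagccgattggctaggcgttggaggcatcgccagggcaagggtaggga
Pdk3: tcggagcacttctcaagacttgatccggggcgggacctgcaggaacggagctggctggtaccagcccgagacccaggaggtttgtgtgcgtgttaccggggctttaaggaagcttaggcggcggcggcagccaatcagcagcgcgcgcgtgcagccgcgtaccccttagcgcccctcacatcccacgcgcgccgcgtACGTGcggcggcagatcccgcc
Of the 35 members, 31 had 1 or more windows in the RefSeq promoter table, 41 windows in all, and windows of the same gene can overlap. In the 250 bases before the start site, ACGTG was found in 13 of the 41 windows (31.7%), against 16.6% of all 32851 windows of the table. The 13 belong to 8 genes, and 6 of them to Ogdh alone. CACGTG was found in 5 of 41 (12.2%), from Pdk2, Pcx and Ogdh, against 6.02% of all windows. TGACNNNGC, the core of an antioxidant response element, was found in 4 of 41 (9.76%), from Mpc1, Idh3g, Dlst and Sucla2, against 10.2%. A match describes the letters only and says nothing of a factor bound there.

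Levels differed widely among the members. Per kilobase of summed exon length and averaged over the 19 libraries, the cytosolic enzymes Idh1 and Mdh1 read highest at 108 and 96 CPM per kilobase. The decarboxylase subunit gene Pdha1 followed at 65.5 and the mitochondrial malate dehydrogenase gene Mdh2 at 56.9 CPM per kilobase. At the low end stood the kinase gene Pdk4 at 0.395, the pyruvate carboxylase gene Pcx at 1.56 and Pdk2 at 1.79 CPM per kilobase. The spread between libraries of a group also differed by gene. Pooled over the 4 groups, the within-group SD of log2 CPM was 0.54 for Pcx, 0.44 for Pdk4, 0.37 for Glul, 0.29 for Mdh1 and 0.28 for Gpt2, and 0.05 for Dlst and 0.07 for Idh3b, which varied least.

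**Figure D1:**
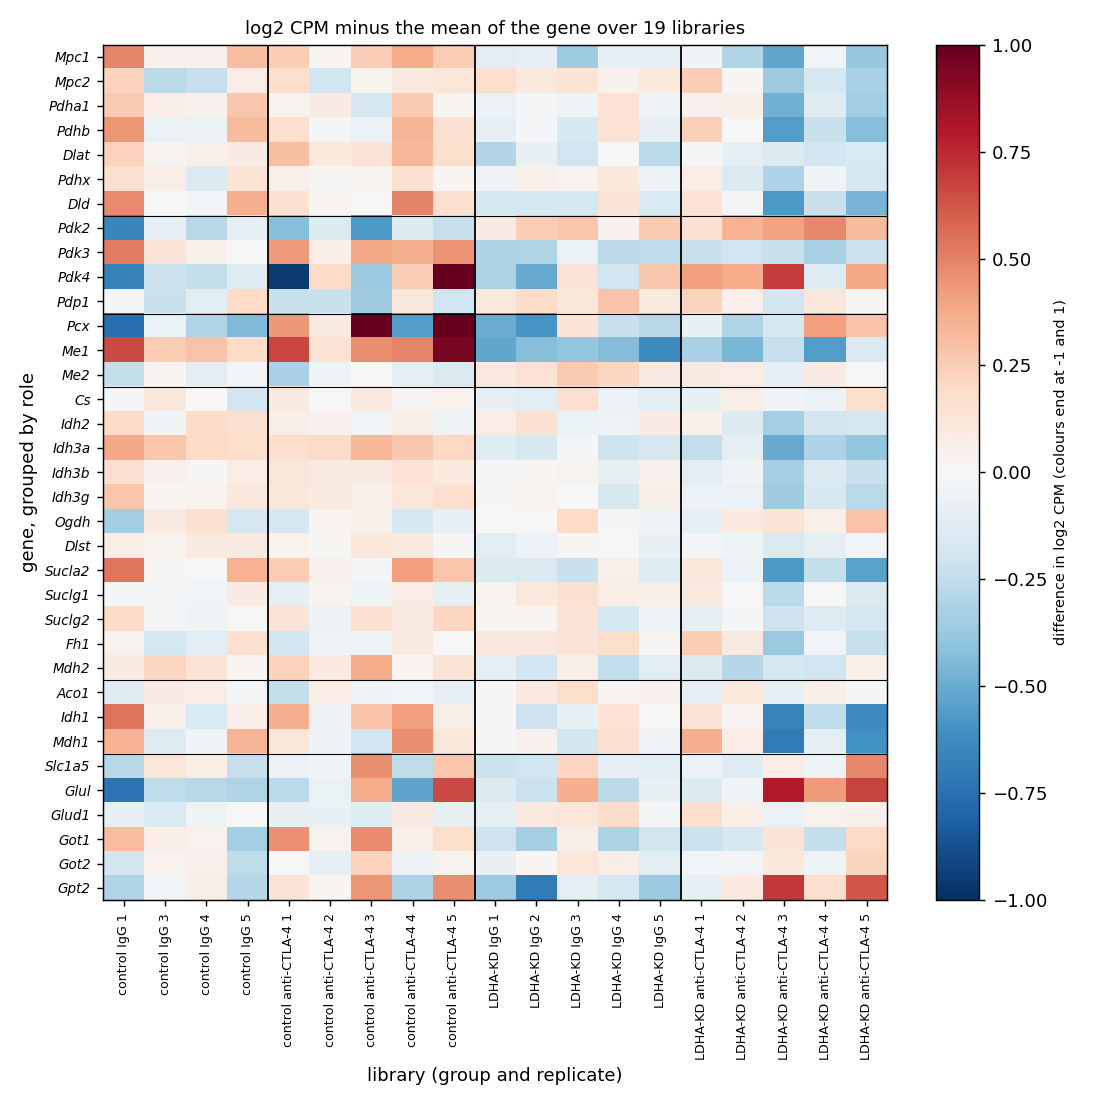
Log2 CPM of each of the 35 genes (rows, grouped by role) in each of the 19 libraries (columns), minus the mean of the gene over the libraries. Me1, Pdk3 and Idh3a are redder in the control columns and bluer in the LDHA-KD columns, Pdk2 shows the opposite, and LDHA-KD anti-CTLA-4 replicates 3 and 5 are bluer than the rest of their group for Idh1, Mdh1, Dld and Pdhb.

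The first question was how the members' transcripts in tumours of the LDHA-KD line differed from those in control tumours. Under IgG, 9 of the 35 members passed an adjusted p of 0.05 in edgeR's quasi-likelihood test (25.7%), against 34.3% of all genes tested. Of these, 7 were lower in LDHA-KD tumours (20% of members, against 17.5% of all genes) and 2 were higher (5.71%, against 16.8%). Under anti-CTLA-4, 13 of 35 passed (37.1%), against 40.0% of all genes. Lower members numbered 12 (34.3%, against 19.8%) and 1 was higher (2.86%, against 20.2%). Without the 4 libraries that stood apart, 6 members were lower (17.1%, against 13% of all genes) and 1 higher (2.86%, against 12.7%). Leaving out control IgG replicate 1 left 4 lower (11.4%, against 14.2%) and 1 higher (2.86%, against 13.5%) under IgG. In the edgeR fit of all 19 libraries with TMM scaling and no replicate term, the share of members called was thus no larger than that of all genes. Most of the called members were lower. The median log2 fold change of the 35 was -0.07 under IgG and -0.17 under anti-CTLA-4, where the medians of all genes were -0.00 and 0.01. The members' median was -0.09 under anti-CTLA-4 without the 4 libraries and -0.04 under IgG without control IgG replicate 1. Members whose groups did not overlap numbered 8 of 35 under IgG (22.9%, against 30.4% of all genes) and 9 of 35 under anti-CTLA-4 (25.7%, against 23.2%).

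Called under both antibodies and in the same direction were 8 members: Me1, Pdk3, Idh3a, Mpc1, Sucla2, Dlat and Mdh2, which were lower in LDHA-KD tumours, and Pdk2, which was higher. They made up 88.9% of the members called under IgG and 61.5% of those called under anti-CTLA-4, and the same shares over all genes were 82.2% and 70.4%. These comparisons share no libraries. No member was called in opposite directions. Scaling by library totals alone moved the median of all genes to 0.07 under IgG and 0.10 under anti-CTLA-4 and that of the members to 0.00 and -0.07. It raised the share of higher genes among all calls from 48.9% to 60.5% and from 50.5% to 65.2%. Under it 4 of the 35 members were higher and 5 lower with IgG, and 4 higher and 10 lower with anti-CTLA-4.

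**Figure D2:**
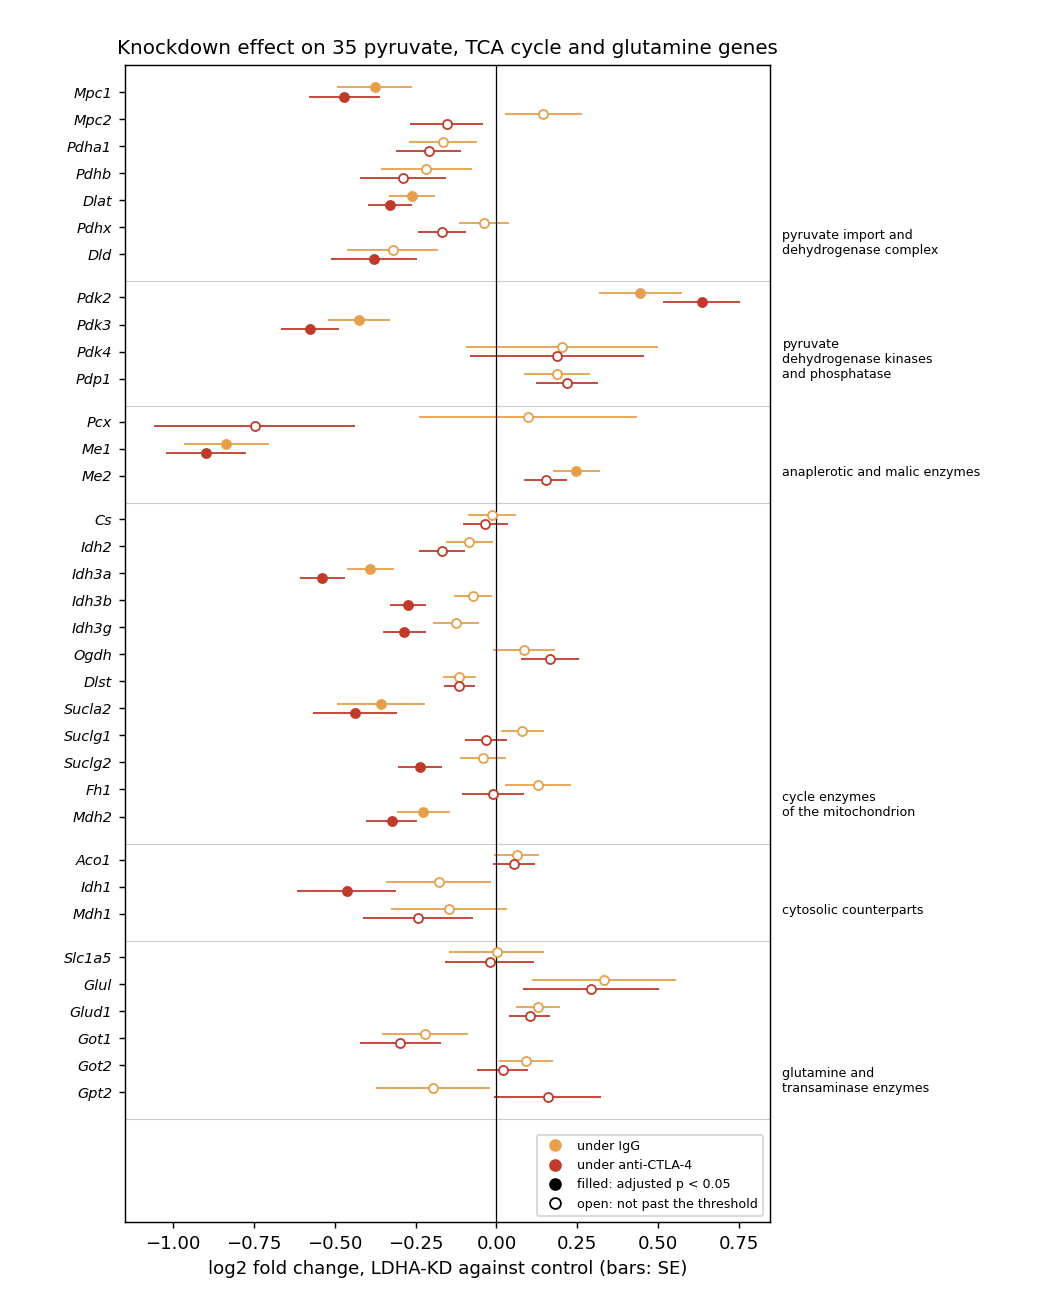
Log2 fold changes between LDHA-KD and control tumours (x axis, SE bars) for the 35 genes by role, under IgG (orange) and anti-CTLA-4 (red), with filled points past an adjusted p of 0.05. Me1 lies farthest to the left, at -0.83 and -0.90, and Pdk2 farthest to the right, at 0.45 and 0.63.

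Several sets of cell markers moved with the same comparison, in which 34.3% of all genes were called under IgG and 40.0% under anti-CTLA-4. The summed CPM of 7 macrophage markers ranged from 1171 to 2114 with IgG and 1416 to 1856 with anti-CTLA-4 in control tumours, and from 2746 to 3294 and 3016 to 3383 in LDHA-KD tumours, and 6 of 7 were called higher under IgG and 7 of 7 under anti-CTLA-4. For 8 T cell markers the ranges were 10.8 to 26.6 and 24.8 to 49 CPM in control tumours and 49.9 to 79.7 and 67 to 128 CPM in LDHA-KD tumours, with 8 of 8 higher under each antibody. For 6 epithelial markers they were 3857 to 4934 and 3822 to 4479 CPM in control tumours and 3076 to 3374 and 2112 to 3303 CPM in LDHA-KD tumours, with 2 of 6 lower under IgG and 4 of 6 under anti-CTLA-4. Endothelial markers were lower for 6 of 6 genes under IgG and 3 of 6 under anti-CTLA-4. For 7 fibroblast markers the ranges were 2819.9 to 5050.4 and 2535 to 5136 CPM in control tumours and 2869 to 3674 and 2782 to 7365 CPM in LDHA-KD tumours, with 1 of 7 higher and 3 lower under IgG and 3 higher and 0 lower under anti-CTLA-4. Fewer neutrophil markers were called, 1 of 6 under IgG and 0 of 6 under anti-CTLA-4. Adipocyte markers called numbered 0 of 7 and 1 of 7, erythroid markers 1 of 5 under each antibody, and skeletal muscle markers 2 of 7 under each. The part of these shifts in the members' differences was not tested, and in bulk tissue fewer cells of a type and less RNA per cell cannot be told apart.

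Among the genes of pyruvate import and the pyruvate dehydrogenase complex, 2 of 7 were lower in LDHA-KD tumours with IgG (28.6%, against 17.5% of all genes). Under anti-CTLA-4, 3 of 7 were lower (42.9%, against 19.8%), and none was higher under either antibody. Without the 4 libraries that stood apart, only Dlat of these stayed called under anti-CTLA-4. Mpc1 (ENSMUSG00000023861.17, chr17:8282904-8297661, plus strand), which encodes a subunit of the mitochondrial pyruvate carrier, was lower in LDHA-KD tumours under both antibodies. The control IgG libraries held 19.9, 14.6, 14.6 and 17.4 CPM of Mpc1, and the control anti-CTLA-4 libraries 16.8, 14.4, 16.9, 18.4 and 16.9 CPM. For LDHA-KD the values were 13.1, 13.4, 11.1, 13.3 and 13.2 CPM (IgG) and 13.8, 11.5, 9.9, 13.9 and 10.9 CPM (anti-CTLA-4). All 10 knockdown values lay under all 9 control values. On the log2 scale edgeR put the difference at -0.38 (SE 0.12) with IgG, adjusted p = 0.0167, and at -0.47 (SE 0.11) with anti-CTLA-4, adjusted p = 0.00220. Without control IgG replicate 1, the highest of its group, the IgG value was -0.28 (adjusted p = 0.0848), and over all 29 alternatives the adjusted p ran from 0.00752 to 0.0848. Without the 4 libraries that stood apart the anti-CTLA-4 value was -0.33 (adjusted p = 0.0852), in a range from 2.06e-04 to 0.0852. Exons of Mpc1 share 480 bases with an antisense gene, 4930506C21Rik, and the strand setting of the counting is not given, so reads of both cannot be told apart. Mpc2, which encodes the partner subunit, was not called, at 0.15 and -0.15.

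Dlat (ENSMUSG00000000168.9, chr9:50634633-50659780, minus strand), the acetyltransferase of the complex, was also lower in LDHA-KD tumours under both antibodies. Control tumours given IgG had 76.4, 66.4, 67.7 and 68.9 CPM of Dlat, and those given anti-CTLA-4 had 80.2, 70.1, 71.5, 82.2 and 73.6 CPM. Knockdown tumours given IgG had 53.2, 62.1, 56.9, 65.2 and 54.1 CPM, and those given anti-CTLA-4 had 64.5, 61, 59.2, 57.1 and 58.7 CPM. Within each antibody the groups did not overlap, and the steps were small. For Dlat the log2 fold change came to -0.26 (SE 0.07) among IgG tumours, where the adjusted p was 0.00834. It came to -0.33 (SE 0.07) among anti-CTLA-4 tumours, where the adjusted p was 8.48e-04. It was called in each of the 29 other settings and left-out libraries tried. Dld is the dehydrogenase that this complex shares with the alpha-ketoglutarate complex. Dld was lower in LDHA-KD than in control tumours under anti-CTLA-4 (-0.38, SE 0.13, adjusted p = 0.0309). Under IgG it missed the threshold (-0.32, SE 0.14, adjusted p = 0.0866). Without the 4 libraries its anti-CTLA-4 value was -0.26 (adjusted p = 0.228). The call was also lost without control anti-CTLA-4 replicate 4 (adjusted p = 0.0965) and on leaving out LDHA-KD anti-CTLA-4 replicate 3, 4 or 5 (adjusted p = 0.0870, 0.0568 and 0.0827). The decarboxylase subunits Pdha1 and Pdhb and the binding subunit Pdhx did not pass, with log2 fold changes from -0.29 for Pdhb under anti-CTLA-4 to -0.04 for Pdhx under IgG.

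Of the kinases that silence the complex, Pdk2 and Pdk3 differed from control in opposite directions in LDHA-KD tumours. A further kinase gene, Pdk1, lies outside the 35, and its values are not given here. Pdk3 (ENSMUSG00000035232.8, chrX:93764607-93832201, minus strand) fell. Pdk3 stood at 61.7, 47.1, 44.7 and 43.2 CPM in the control IgG libraries and at 57.8, 45.2, 56, 55.2 and 59 CPM in the control anti-CTLA-4 libraries. The values were 34.8, 35.1, 41.2, 35.9 and 36.2 CPM for LDHA-KD IgG and 37, 37.5, 37, 34.5 and 37.1 CPM for LDHA-KD anti-CTLA-4. Every knockdown library was lower than every control library, and control IgG replicate 1 was the highest of all. The edgeR log2 fold change of Pdk3 was -0.43 (SE 0.10) with IgG, at an adjusted p of 0.00188, and -0.58 (SE 0.09) with the antibody against CTLA-4, at an adjusted p of 6.38e-05. Pdk2 (ENSMUSG00000038967.13, chr11:95026258-95041354, minus strand), the less abundant of the pair, rose. The control IgG libraries held 3.52, 5.22, 4.57 and 5.16 CPM of Pdk2, and the control anti-CTLA-4 libraries 4.11, 5.03, 3.71, 5.04 and 4.71 CPM. For LDHA-KD the values were 5.84, 6.56, 6.7, 5.71 and 6.61 CPM (IgG) and 6.16, 7.02, 7.32, 7.72 and 6.9 CPM (anti-CTLA-4). Every knockdown library was higher than every control library. On the log2 scale edgeR put the difference at 0.45 (SE 0.13) with IgG, adjusted p = 0.0108, and at 0.63 (SE 0.12) with anti-CTLA-4, adjusted p = 3.69e-04. Both genes were called in each of the 29 other settings and left-out libraries in both comparisons.

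The ratio of the pair per kilobase within a library was lower in LDHA-KD tumours. The Pdk3 to Pdk2 ratio averaged 13.8 ± 5.29 (SD, n = 4) in the control IgG group and 15.2 ± 3.01 (SD, n = 5) in the control anti-CTLA-4 group. For the knockdown groups it was 7.21 ± 0.511 and 6.48 ± 0.690 (SD, n = 5 each). The control libraries ranged from 10.3 to 21.7 and the knockdown libraries from 5.51 to 7.76, so Pdk3 stayed the more abundant transcript in all 19. Pdk4, a kinase known to rise in fasting, was near the bottom of the range in every group, at 0.676 to 2.71 CPM, and was not called (0.20 and 0.19). The phosphatase gene Pdp1 was not called either, at 0.19 and 0.22 with adjusted p of 0.162 and 0.0742, but was called higher in both comparisons when libraries were scaled by their totals alone.

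**Figure D3:**
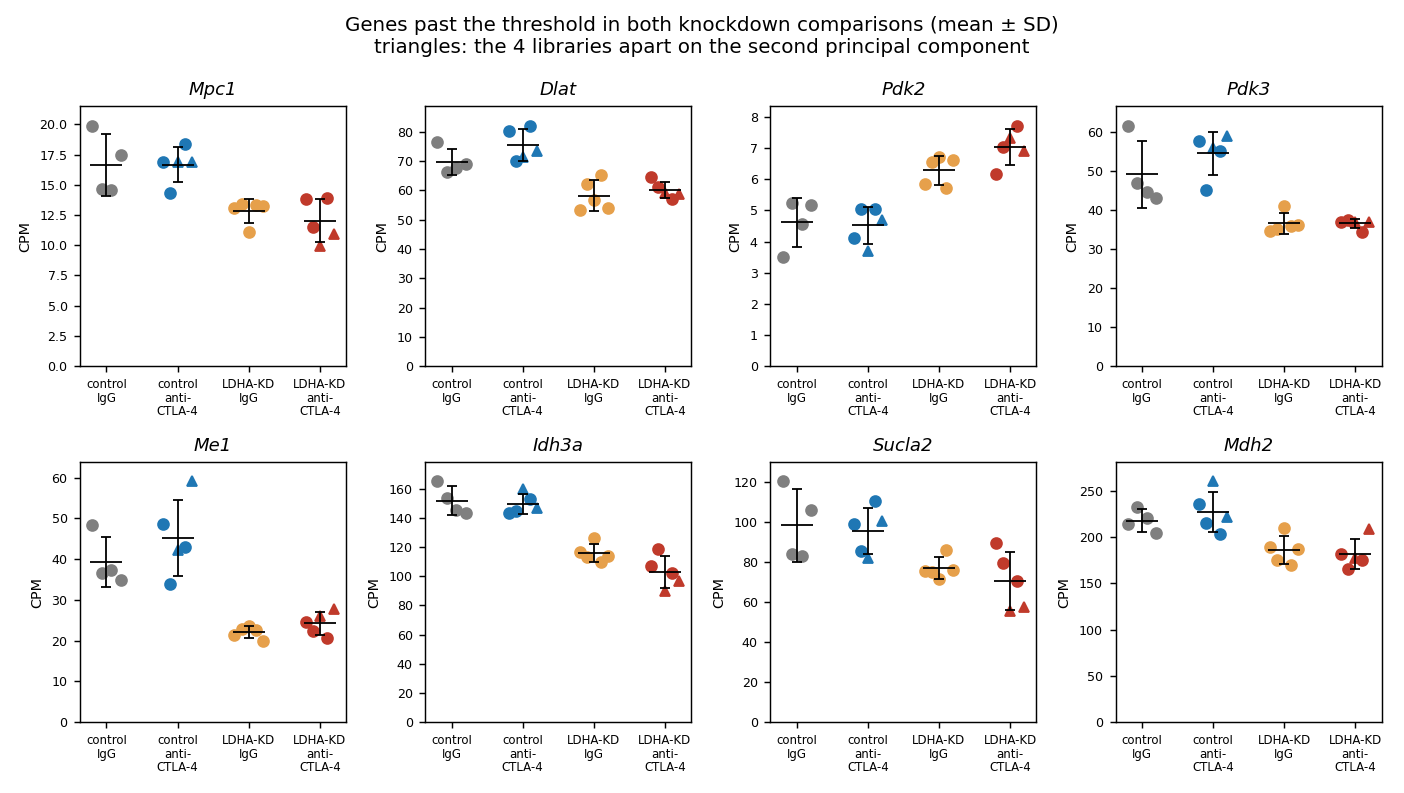
CPM of the 8 genes called under both antibodies, by group (each point a library, black lines the mean ± SD, triangles the 4 libraries apart on the second principal component, linear axes from 0). Mpc1, Pdk2, Pdk3, Me1 and Idh3a show no overlap between control and LDHA-KD libraries within an antibody, and neither does Dlat, while Sucla2 and Mdh2 overlap.

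The malic enzymes convert malate to pyruvate, Me1 in the cytosol with NADPH as a product and Me2 in mitochondria. Me1 (ENSMUSG00000032418.15, chr9:86581371-86695953, minus strand) differed more than any other member in the knockdown comparisons. Control tumours given IgG had 48.4, 36.6, 37.3 and 35 CPM of Me1, and those given anti-CTLA-4 had 48.6, 33.8, 42.2, 42.9 and 59.1 CPM. Knockdown tumours given IgG had 21.4, 22.8, 23.5, 22.7 and 19.8 CPM, and those given anti-CTLA-4 had 24.5, 22.3, 26.1, 20.8 and 27.7 CPM. Control tumours read from 33.8 to 59.1 CPM and LDHA-KD tumours from 19.8 to 27.7 CPM, without overlap. Me1 was 1.78-fold lower under IgG (-0.83, SE 0.13, adjusted p = 7.09e-05) and 1.86-fold lower under anti-CTLA-4 (-0.90, SE 0.12, adjusted p = 1.71e-05), and it was called in each of the 29 other settings. Its exons share 30 bases with an antisense gene, A330041J22Rik.

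Me2 went the other way under IgG. It read 38, 45.4, 41.4 and 44 CPM in control and 47.9, 49.5, 53.8, 51.8 and 47.4 CPM in LDHA-KD tumours, with no overlap. The difference was 0.25 (SE 0.07, adjusted p = 0.0114), and without control IgG replicate 1 the adjusted p was 0.0504. Under anti-CTLA-4 the groups overlapped and Me2 missed the threshold (0.15, SE 0.07, adjusted p = 0.0791). The Me1 to Me2 ratio per kilobase averaged 1.78 ± 0.425 (SD, n = 4) in the control IgG group and 2.1 ± 0.536 (SD, n = 5) in the control anti-CTLA-4 group, against 0.830 ± 0.0292 and 1.0 ± 0.155 (SD, n = 5 each) in LDHA-KD tumours. Its ranges were 1.5 to 2.4 and 1.48 to 2.75 in control tumours and 0.788 to 0.868 and 0.828 to 1.17 in LDHA-KD tumours, and they did not overlap.

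Of the 12 mitochondrial cycle enzymes, 3 were lower in LDHA-KD tumours with IgG (25%, against 17.5% of all genes). Under anti-CTLA-4, 6 were lower (50%, against 19.8%), and none was higher under either antibody. Without the 4 libraries that stood apart, only Idh3a, Idh3b and Mdh2 of these stayed called under anti-CTLA-4. In that fit 13% of all genes were lower. Idh3a (ENSMUSG00000032279.11, chr9:54586334-54604661, plus strand), the catalytic subunit of the NAD-dependent isocitrate dehydrogenase, was the most separated. Idh3a stood at 165, 153, 145 and 143 CPM in the control IgG libraries and at 143, 145, 159.7, 153 and 146 CPM in the control anti-CTLA-4 libraries. The values were 116, 113, 126, 109.7 and 114 CPM for LDHA-KD IgG and 107, 118, 89.5, 102 and 96.7 CPM for LDHA-KD anti-CTLA-4. No LDHA-KD library reached the lowest control library. For Idh3a the log2 fold change came to -0.39 (SE 0.07) among IgG tumours, where the adjusted p was 4.35e-04. It came to -0.54 (SE 0.07) among anti-CTLA-4 tumours, where the adjusted p was 9.04e-06. It was called in each of the 29 other settings. The other subunits of the same enzyme moved less. Idh3b missed the threshold with IgG (-0.07, SE 0.06, adjusted p = 0.363). Among anti-CTLA-4 tumours it was lower in LDHA-KD than in control (-0.27, SE 0.06, adjusted p = 7.18e-04). The same held for Idh3g (-0.12, SE 0.07, adjusted p = 0.191 and -0.28, SE 0.07, adjusted p = 0.00249). Idh3b kept its anti-CTLA-4 call without the 4 libraries, and Idh3g did not, at -0.20 (adjusted p = 0.0828).

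Sucla2 (ENSMUSG00000022110.13, chr14:73525319-73596142, plus strand) encodes the beta subunit of the succinyl-CoA ligase that makes ATP, and Suclg2 that of the GTP-making form, with Suclg1 as their shared alpha subunit. The control IgG libraries held 120.3, 83.9, 83.2 and 106 CPM of Sucla2, and the control anti-CTLA-4 libraries 99.3, 85.7, 82, 110.4 and 101 CPM. For LDHA-KD the values were 75.6, 75.2, 71.3, 86.1 and 75.9 CPM (IgG) and 89.6, 79.7, 55.6, 70.3 and 57.5 CPM (anti-CTLA-4). Groups overlapped under each antibody, and LDHA-KD anti-CTLA-4 replicates 3 and 5 were the lowest of all 19. The edgeR log2 fold change of Sucla2 was -0.36 (SE 0.14) with IgG, at an adjusted p of 0.0495, and -0.44 (SE 0.13) with the antibody against CTLA-4, at an adjusted p of 0.0111. With IgG it lay just inside the threshold and was called in 14 of 29 other settings, with adjusted p from 0.0222 to 0.210. Leaving out any 1 of 11 libraries ended the call: control IgG replicate 1 (adjusted p = 0.210), control IgG replicate 5 (0.118), or replicates 1, 2 and 5 of control anti-CTLA-4, 1, 2, 3 and 5 of LDHA-KD IgG and 2 and 4 of LDHA-KD anti-CTLA-4, with adjusted p from 0.0503 to 0.210 over the 11. With anti-CTLA-4 it was called in 28 of 29 and lost without the 4 libraries, at -0.30 (adjusted p = 0.125). Suclg2 was lower in LDHA-KD than in control tumours under anti-CTLA-4 (-0.24, SE 0.07, adjusted p = 0.00948). Without the 4 libraries its value was -0.14 (adjusted p = 0.270). Suclg1 was not called in either comparison (0.08 and -0.03).

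Mdh2 (ENSMUSG00000019179.10, chr5:135778480-135790398, plus strand) makes oxaloacetate from malate in mitochondria. Control tumours given IgG had 214, 233, 221 and 204 CPM of Mdh2, and those given anti-CTLA-4 had 236, 216, 260.2, 204 and 222 CPM. Knockdown tumours given IgG had 189, 176, 209.6, 170.0 and 187 CPM, and those given anti-CTLA-4 had 182, 165, 178, 175 and 208 CPM. Control libraries were higher on the whole, with 1 or more LDHA-KD libraries reaching into their range under each antibody. On the log2 scale edgeR put the difference at -0.23 (SE 0.08) with IgG, adjusted p = 0.0400, and at -0.32 (SE 0.08) with anti-CTLA-4, adjusted p = 0.00277. The IgG call was kept in 16 of 29 other settings, with adjusted p from 0.0190 to 0.202, and the anti-CTLA-4 call in all 29. Leaving out any 1 of 9 libraries ended the IgG call (replicates 1, 3 and 4 of control IgG, 1 and 5 of control anti-CTLA-4, and 1, 2, 4 and 5 of LDHA-KD IgG), with adjusted p from 0.0524 to 0.133. Citrate synthase, which opens the cycle, read similar values in the 4 groups, with Cs at 219 ± 18.8 and 229 ± 6.78 CPM in control and 217 ± 18.2 and 224 ± 15.9 CPM in LDHA-KD tumours (mean ± SD) and log2 fold changes of -0.01 and -0.03. The alpha-ketoglutarate dehydrogenase genes Ogdh and Dlst, the NADP-dependent Idh2 and the fumarase gene Fh1 were not called. Their log2 fold changes ran from -0.17 for Idh2 under anti-CTLA-4 to 0.17 for Ogdh under anti-CTLA-4. Dlst did not overlap between groups under either antibody, at -0.12 and -0.12, and missed the threshold with adjusted p = 0.0868 and 0.0621.

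Of the 3 cytosolic counterparts, none was called under IgG (0%, against 34.3% of all genes) and 1 under anti-CTLA-4 (33.3%, against 40.0%). Idh1 is the cytosolic NADP-dependent isocitrate dehydrogenase and the most abundant member per kilobase. Among anti-CTLA-4 tumours Idh1 was lower in LDHA-KD than in control (-0.46, SE 0.15, adjusted p = 0.0222). It read 374, 281, 356, 392 and 305 CPM in control and 322, 299, 184, 245 and 188 CPM in LDHA-KD tumours with anti-CTLA-4, with the lowest values in replicates 3 and 5. Without the 4 libraries the value was -0.27 (adjusted p = 0.247), and the call was also lost without control anti-CTLA-4 replicate 1 (adjusted p = 0.0519) or 4 (0.0553) and on leaving out LDHA-KD anti-CTLA-4 replicate 3 (0.0636) or 5 (0.0643). Mdh1, which passes reducing equivalents between cytosol and mitochondria, was not called (-0.15 and -0.24), and neither was Aco1, the cytosolic aconitase (0.06 and 0.05).

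None of the 6 glutamine and transaminase genes was called in either knockdown comparison by edgeR with TMM scaling of all 19 libraries. Of all genes, 34.3% were called under IgG and 40.0% under anti-CTLA-4, and a set of 6 is small for such a comparison. Slc1a5, which imports glutamine, had log2 fold changes of 0.00 and -0.02, and Glud1, which turns glutamate into alpha-ketoglutarate, 0.13 and 0.10. Glul, which makes glutamine from glutamate, was at 0.33 and 0.29 (adjusted p = 0.269 and 0.277). The aspartate transaminases Got1 and Got2 were at -0.22 and 0.09 under IgG and -0.30 and 0.02 under anti-CTLA-4. Gpt2, the mitochondrial alanine transaminase, was at -0.20 and 0.16.

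Several members that missed the threshold in that fit passed it under an alternative. In DESeq2, Dlst passed under IgG (adjusted p = 0.0193, range over the 29 alternatives 0.0193 to 0.546), and Dlst (0.0101, range 0.0101 to 0.796) and Idh2 (0.0472, range 0.0115 to 0.401) passed under anti-CTLA-4, all lower in LDHA-KD tumours. Scaled by library totals alone, Glud1 was higher under IgG (adjusted p = 0.0178, range 0.0178 to 0.306) and anti-CTLA-4 (0.00982, range 0.00982 to 0.387), and so was Me2 under anti-CTLA-4 (0.0156, range 0.0156 to 0.239). The fit of the compared groups alone called Dld lower under IgG (adjusted p = 0.0455, range 0.0455 to 0.281). Got1 passed as lower under anti-CTLA-4 without control IgG replicate 1 (adjusted p = 0.0476) or 5 (0.0434), control anti-CTLA-4 replicate 2 (0.0407) or LDHA-KD anti-CTLA-4 replicate 3 (0.0486) or 5 (0.0364), in a range of 0.0364 to 0.219. With LDHA-KD anti-CTLA-4 replicate 1 left out, 6 members were added as lower: Pdha1 (adjusted p = 0.0453), Pdhb (0.0123), Pdhx (0.0228), Idh2 (0.0115), Dlst (0.0487) and Mdh1 (0.0490). Without replicate 2 of that group Pdha1 also passed (0.0428). The highest adjusted p over the alternatives was 0.340 for Pdha1, 0.473 for Pdhb, 0.438 for Pdhx and 0.795 for Mdh1. Pdp1 was higher under anti-CTLA-4 without control anti-CTLA-4 replicate 4 (adjusted p = 0.0123) or LDHA-KD anti-CTLA-4 replicate 3 (0.0322), in a range of 0.00791 to 0.172, and Me2 without control anti-CTLA-4 replicate 3 (0.0467). None of the added calls was in the direction opposite to the fit of all 19 libraries.

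Of a further 26 genes of the same pathways, outside the 35, 3 rose and 6 fell in the knockdown comparison with IgG, and 5 rose and 7 fell with anti-CTLA-4. The share called was 34.6% with IgG and 46.2% with anti-CTLA-4, against 34.3% and 40.0% of all genes. The smallest p-values under IgG belonged to Slc25a13 (0.59, SE 0.09, adjusted p = 9.45e-05), Slc25a12 (0.40, SE 0.07, adjusted p = 1.10e-04) and Lias (-0.43, SE 0.07, adjusted p = 1.64e-04). Slc25a12 and Slc25a13 encode aspartate-glutamate carriers of the malate-aspartate shuttle, and Lias makes the lipoic acid that Dlat and Dlst carry. Under anti-CTLA-4 they belonged to Lias (-0.61, SE 0.07, adjusted p = 1.76e-06), Slc25a13 (0.54, SE 0.09, adjusted p = 9.62e-05) and Nnt (-0.35, SE 0.06, adjusted p = 1.59e-04), the mitochondrial transhydrogenase.

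The next question was what anti-CTLA-4 did to these transcripts within each tumour line. None of the 35 members passed in control tumours or in LDHA-KD tumours in edgeR's quasi-likelihood test, and 0% of all genes did in either. At an unadjusted p under 0.05, 2 of 35 members and 1346 of 16763 genes differed in control tumours. In LDHA-KD tumours 7 of 35 members and 1987 of 16763 genes did. DESeq2 called 11 genes in control tumours, none of them a member, and 50 in LDHA-KD tumours, 1 of them a member. No member's groups failed to overlap in either comparison, against 1.27% of all genes in control and 1.38% in LDHA-KD tumours.

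Gpt2 (ENSMUSG00000031700.11, chr8:85492576-85527560, plus strand) was that member. Knockdown libraries read 15.1, 12, 18.3, 17.2 and 15.1 CPM in the IgG group and 18.2, 20.9, 31.8, 21.9 and 30.0 CPM in the anti-CTLA-4 group, with the highest values in replicates 3 and 5. Control libraries read 15.8, 19.2, 20.3 and 16 CPM in the IgG group and 21.3, 19.8, 26.5, 15.7 and 26.8 CPM in the anti-CTLA-4 group. The groups overlapped in each line, by very little in LDHA-KD tumours. Its log2 fold change in LDHA-KD tumours was 0.66 (SE 0.17, adjusted p = 0.293) in edgeR and 0.66 (adjusted p = 0.0480) in DESeq2, and the adjusted p ran from 0.0480 to 1.0 over the 29 alternatives. Without the 4 libraries the edgeR value was 0.39 (adjusted p = 1.0). In control tumours edgeR gave 0.30 (SE 0.18, adjusted p = 0.654).

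Pcx (ENSMUSG00000024892.17, chr19:4510472-4621752, plus strand), pyruvate carboxylase, which makes oxaloacetate from pyruvate, had the largest treatment difference of any member in control tumours, and it did not pass. The control IgG libraries read 3.94, 6.35, 5.41 and 4.9 CPM and the control anti-CTLA-4 libraries 8.96, 7.09, 13.5, 4.51 and 24.3 CPM. For LDHA-KD the values were 4.71, 4.41, 7.28, 5.71 and 5.5 CPM (IgG) and 6.32, 5.4, 5.96, 8.85 and 8.12 CPM (anti-CTLA-4). Control anti-CTLA-4 replicates 5 and 3 were the highest of all 19 libraries. In control tumours the treated libraries differed by 1.18 on the log2 scale (SE 0.34, adjusted p = 0.601), and without control anti-CTLA-4 replicate 5 it was 0.72 (adjusted p = 0.911). Without the 4 libraries it was 0.41 (adjusted p = 0.9995). Control anti-CTLA-4 replicates 5 and 3 also had the highest summed CPM of 7 adipocyte markers, at 841 and 362. The other 17 libraries ranged from 67.2 to 199.7, and the part of fat tissue in the Pcx values was not tested. The knockdown comparison of Pcx with anti-CTLA-4 gave -0.75 (SE 0.31, adjusted p = 0.0621), and 0.00 (adjusted p = 0.996) without the 4 libraries, with adjusted p from 0.0115 to 0.996 over the alternatives. It passed in DESeq2, and in edgeR without control anti-CTLA-4 replicate 2 (adjusted p = 0.0329) or 4 (0.0115).

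LDHA-KD anti-CTLA-4 replicates 3 and 5 stood apart for several members, named here after their values were seen. They read 149 and 159 CPM of Mdh1 and 98.8 and 106 CPM of Dld, the lowest of all 19 libraries for each gene. They read 160.3 and 148 CPM of Glul, the highest of all. In the same libraries the summed CPM of 6 neutrophil markers was 1364 and 1197, against 449 to 752 in the rest of the group, and that of the epithelial markers was 2112 and 2282, the lowest of all. Fibroblast markers summed to 7365 CPM in replicate 3, the highest of all 19, and to 4894 CPM in replicate 5, against 2782 to 4562 CPM in the rest of the group. Reads outside genes made up 13.8% and 12.1% of their records, the highest of all. The part of these shifts in the members' values was not tested.

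**Figure D4:**
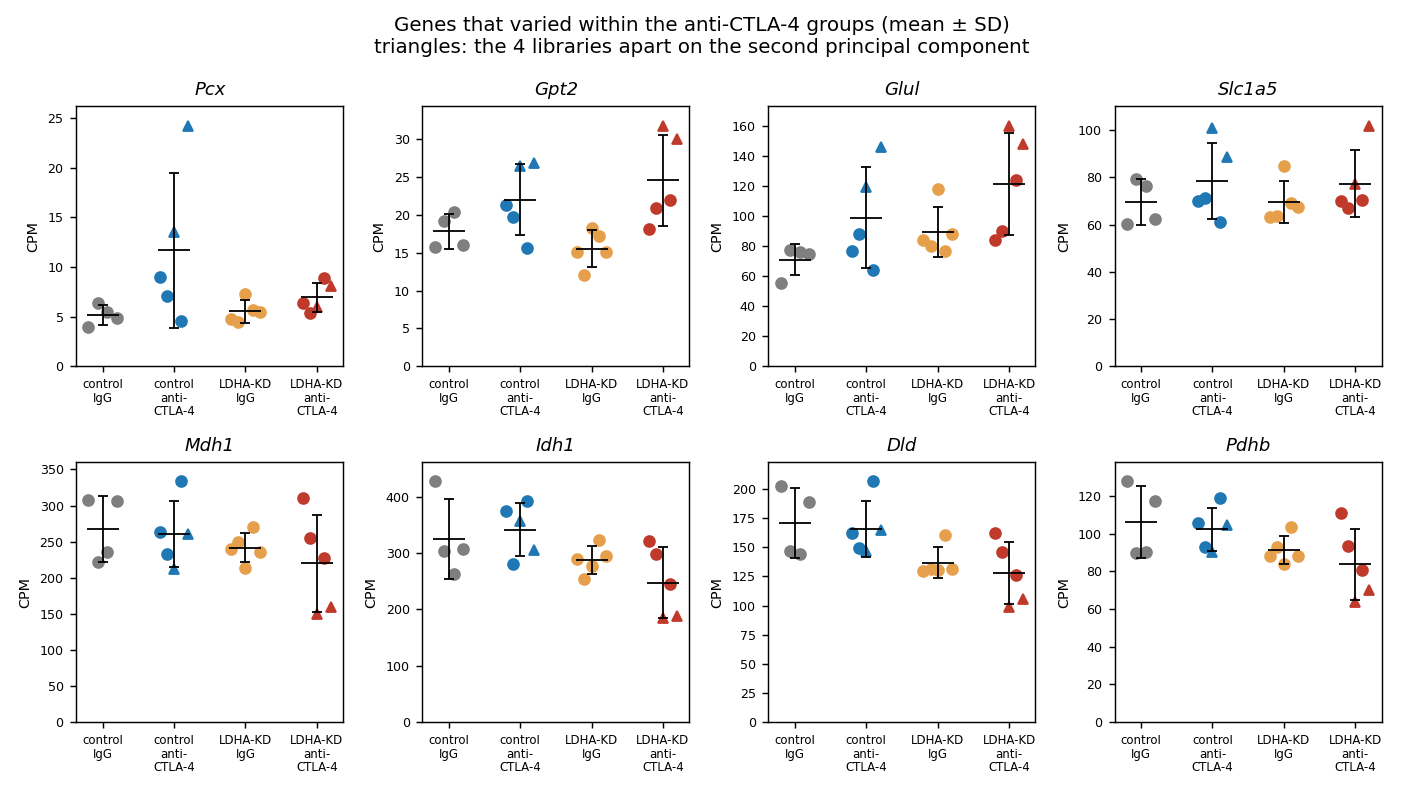
CPM of 8 genes that varied within the anti-CTLA-4 groups, by group (each point a library, black lines the mean ± SD, triangles the 4 libraries apart on the second principal component, linear axes from 0). Triangles lie at the top for Gpt2 and Glul, those of the control group alone lie at the top for Pcx, and those of the LDHA-KD group lie at the bottom for Mdh1, Idh1, Dld and Pdhb.

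Whether anti-CTLA-4 acted differently in the lines was tested as an interaction, that is, the log2 effect of the antibody in the knockdown line less its effect in the control line. None of the 35 members passed in edgeR's quasi-likelihood test, nor did any other gene (0%), and DESeq2 called 0 genes. At an unadjusted p under 0.05 there was 1 of the 35 members, and there were 415 of the 16763 genes tested. That member was Idh3b, at -0.20 ± 0.08 (SE) on the log2 scale, and at -0.14 without the 4 libraries that stood apart. Its means were 115 ± 4.97 CPM (IgG) and 118 ± 2.01 CPM (anti-CTLA-4) in control tumours, and 109 ± 3.59 CPM and 97.5 ± 7.56 CPM in LDHA-KD tumours (mean ± SD). The larger count of members called in the knockdown comparison under anti-CTLA-4 than under IgG, 13 against 9, is not shown to be a difference between the antibodies.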

How the data were processed

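Frozen tumour tissue gave 500 ng of total RNA for poly(A) selection and a stranded TruSeq library, per the labels' protocols. The authors deposited raw counts per gene, without normalization, made with HTSeq 0.5.3 on mm10 per the submitters' processing notes, which also name Picard 1.124. The aligner, annotation release and strand setting are not given in the sources used here. These counts entered edgeR 4.0.16 (R 4.3.3): filterByExpr on the group left 16763 genes, TMM factors scaled the libraries, and all 19 samples entered 1 quasi-likelihood fit with 1 coefficient per group, with Benjamini-Hochberg adjustment over all genes and a threshold of 0.05. Summary lines that name no gene were left out of the totals (8.42% to 13.8% of records fell outside genes). The fit recovered known fold changes in counts simulated from its own estimates of the spread. Such counts hold no libraries that stand apart, so this checks the code only. Alternatives used DESeq2 1.42.0, limma 3.58.1 (voom), other scalings and filters, a replicate block and left-out libraries. CPM uses the TMM-scaled totals. Within groups the lowest chi-square per gene between 2 libraries was 5.40, so no library was a copy of another. Coordinates are from GENCODE M21 (GRCm38) and upstream sequences from RefSeq (GRCm38.p6). Exons of Mpc1, Me1, Mdh1, Idh3b, Glul, Got2 and Pdha1 overlap another gene, whose reads may be shared.

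The members and all lists were chosen with earlier results of these data known. Every library's values are given for members called in both knockdown comparisons in the same direction, for any called for treatment or interaction, and for the 6 with the largest absolute log2 fold change. Of the other pathway genes, the 3 with the smallest p per knockdown comparison are named. Other members named were chosen after their values were seen.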

Additional observations from a re-analysis of the deposited data

Results flagged for a closer look

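Of 140 sets of libraries tested (35 genes in 4 groups), 16 held a library whose gap to its neighbour took up more of the group's range than Dixon's 95% limit. Chance gives about 1 in 20. The 35 genes were read in the same 19 libraries, so the sets are not independent, and the count was not tested against that rate. The values are in CPM. In LDHA-KD IgG replicate 3, Mpc1 was low at 11.1, and Pdk3 (41.2), Cs (249), Ogdh (123), Slc1a5 (84.9) and Glul (118) were high, so this library held 6 of the 16. Pdha1 (269) and Dld (160.2) were high in LDHA-KD IgG replicate 4. In control IgG replicate 1, Me1 (48.4) and Suclg2 (55.6) were high and Glul (55.3) was low. Idh2 was low in control IgG replicate 3 at 115, and Suclg1 was high in control IgG replicate 5 at 69.9. Pdk3 was low in control anti-CTLA-4 replicate 2 at 45.2 and in LDHA-KD anti-CTLA-4 replicate 4 at 34.5, and Glud1 was high in control anti-CTLA-4 replicate 4 at 194.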

How the results depend on the processing

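No result that passed the threshold changed direction under any alternative, and 10 results for single members lost their call in at least 1 alternative, 47 times in all. Without the 4 libraries apart on the second principal component, leaving 3 libraries in each anti-CTLA-4 group, 4308 of all genes and 7 members were called in the knockdown comparison under anti-CTLA-4, in place of 6711 and 13. The members lost were Mpc1, Dld, Idh3g, Sucla2, Suclg2 and Idh1. The knockdown comparison under IgG kept 5 to 9 members when single libraries were left out, with 5 (Dlat, Pdk2, Pdk3, Me1 and Idh3a) without control IgG replicate 1. DESeq2 called 50 genes for anti-CTLA-4 in LDHA-KD tumours, 1 of them a member (Gpt2), and 11 genes in control tumours, where edgeR called 0. With single libraries left out, edgeR called 0 to 1 genes for anti-CTLA-4 in LDHA-KD tumours, and the cause was not tested. Under IgG, Sucla2 and Mdh2 were also lost with upper quartile factors, with library totals and without a filter on low counts.

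Whether the replicate numbers pair the samples cannot be told from the correlations of libraries across groups, whose ranges overlap. Same-numbered libraries of different groups correlated from -0.21 to 0.39 (median 0.12) in their deviations from the group means. Differently numbered libraries correlated from -0.45 to 0.46 (median -0.04), and 5 of 19 libraries correlated best with their own number. With the replicate block, 9 of 35 members were called under IgG and 17 of 35 under anti-CTLA-4. Of the 16763 genes tested, 5941 and 7144 were called. Under anti-CTLA-4 the share of members called was then larger than that of all genes. The 4 added were Pdhb, Pdp1, Idh2 and Got1. Depth limits Pdk4 most, with 23 counts in its lowest library.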
